A study of Arabidopsis thaliana with 42 samples.

Results

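Nicotianamine is a small chelator that plants make from S-adenosylmethionine (SAM), and the genes for making and moving it were followed in Arabidopsis thaliana (strain Col-0) that cannot fully recycle the by-product of that synthesis. The genes were chosen as a family by locus identifier, without a threshold on any measured value. They are the 4 nicotianamine synthases NAS1 (AT5G04950), NAS2 (AT5G56080), NAS3 (AT1G09240) and NAS4 (AT1G56430), the 3 yellow stripe-like transporters YSL1 (AT4G24120), YSL2 (AT5G24380) and YSL3 (AT5G53550), and the oligopeptide transporter OPT3 (AT4G16370). All 8 genes were present in each table. They are 8 of 37336 genes in the count tables, and 8 of 26900 and 27925 genes in the seedling and bud tables of TPM (transcript abundance scaled for length and library size).

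RNA sequencing with polyadenylated RNA enrichment was done on whole seedlings aged 14 days and on unopened flower buds, 42 libraries in 12 groups. Seedlings were wild type (WT), mtn1-1mtn2-1 or mtn1-1mtn2-5, and buds were WT, mtn1-1mtn2-1 or plants labelled G3, whose genotype the labels also give as mtn1-1mtn2-1 without saying what G3 stands for. Each genotype was grown without (mock) or with spermidine at 100 µM in the MS medium, with 3 libraries per seedling group and 4 per bud group. Each library came from pooled tissue, and the labels do not say whether libraries came from separate cultures, so p-values measure the spread between these libraries, which may be technical. Libraries were made by 2 providers that the labels do not tie to libraries, so provider and group cannot be told apart. The medium held sucrose, and plants grown to maturity were moved from it to soil, with no record in the labels of when the bud plants last met spermidine. MTN1 (AT4G38800) and MTN2 (AT4G34840) encode the methylthioadenosine nucleosidases.

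The synthases join SAM molecules into nicotianamine and release methylthioadenosine, which the MTN enzymes cleave so that it can return to methionine. Nicotianamine binds iron, zinc and copper and keeps them soluble for transport between cells and along the phloem. YSL proteins take up metals bound to nicotianamine, with YSL1 and YSL3 known for moving metals out of leaves and into reproductive organs and seeds, and OPT3 is known for loading iron into the phloem and for signalling shoot iron status to the root.

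The disrupted genes were checked first. In mock seedlings MTN1 stood at 100 to 106 CPM (counts scaled to a common library size) in WT, 4.3 to 5.93 CPM in mtn1-1mtn2-1, and 4.46, 20.7 and 4.89 CPM in mtn1-1mtn2-5, so replicate 2 of that group stood apart. MTN2 was 6.82 to 7.14 CPM in WT and 0.112 to 0.129 CPM in mtn1-1mtn2-1, but 7.97 to 9.19 CPM in mtn1-1mtn2-5, where it was not lower. In buds the count and TPM tables exchange the names WT and G3: by their closest match among the TPM columns, 8 of the 24 count columns paired with their own name and 16 with the exchanged one. The bud values below are TPM under the names of the TPM table, where MTN1 was 113 to 127 TPM in WT and 3.61 to 9.09 TPM in mtn1-1mtn2-1 and G3. Every bud direction that involves WT or G3 rests on that choice of names. Tissue labels went with marker levels: 4 floral organ genes summed to 712 to 1100 TPM in buds and to 2.3 to 7.52 CPM in seedlings. Library totals were 134.1 to 161 M count units in seedlings and 75.29 to 92.62 M in buds, about 40.3 to 48.3 M and 18.9 to 23.3 M fragments by the spacing of the low values.

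The 4 synthase genes each have 1 exon and a coding sequence of 963 bases, or 975 in NAS4, and they form pairs of close sequence. NAS1 and NAS2 were 82.8% identical over the coding sequence and NAS3 and NAS4 79.0%, against 66.6% to 68.4% between the pairs. The longest run shared by NAS1 and NAS2 was 49 bases, which lies in the stretch shown here because a read inside such a run cannot be assigned to 1 of the 2 genes. Capitals mark bases that differ from NAS1, 5 in NAS2, 13 in NAS3 and 12 in NAS4, and the sequences are from RefSeq (TAIR10.1), read 5′ to 3′ on the coding strand at chr5:1458595-1458654 (minus strand), chr5:22712118-22712177 (minus), chr1:2985134-2985193 (plus) and chr1:21137210-21137269 (plus).
NAS1: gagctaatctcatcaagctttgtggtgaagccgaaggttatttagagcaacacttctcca
NAS2: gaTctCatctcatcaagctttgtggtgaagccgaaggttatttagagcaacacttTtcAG
NAS3: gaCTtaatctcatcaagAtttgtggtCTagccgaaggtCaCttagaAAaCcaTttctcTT
NAS4: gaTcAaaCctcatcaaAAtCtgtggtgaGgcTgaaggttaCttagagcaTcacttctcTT

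The 250 bases before the annotated gene start were searched on both strands for 4 short motifs: CACGTG (the G-box), CANNTG (the E-box bound by basic helix-loop-helix factors, which also matches every G-box), GTAC (the core of copper response elements) and CATGC (the core of an iron deficiency element known from cereals). GTAC was present in 6 of the 8 windows (all but YSL1 and OPT3) and in 34.3% of 27437 protein-coding genes. CANNTG was present in 7 of 8 (all but NAS1) and in 55.3% of all genes, CATGC in NAS1, NAS2 and NAS4 and in 17.2%, and CACGTG in OPT3 only and in 6.49%. A match is a run of letters and not a tested site. The windows of the 5 genes with at least 1 call that was kept in every fit without 1 library (described below) are shown, with the G-box, the copper core and the iron deficiency core in capitals. They lie at chr5:22712442-22712691 (minus) for NAS2, chr1:2984579-2984828 (plus) for NAS3, chr4:12523936-12524185 (plus) for YSL1, chr5:21755001-21755250 (plus) for YSL3 and chr4:9250344-9250593 (minus) for OPT3, in RefSeq TAIR10.1.
NAS2: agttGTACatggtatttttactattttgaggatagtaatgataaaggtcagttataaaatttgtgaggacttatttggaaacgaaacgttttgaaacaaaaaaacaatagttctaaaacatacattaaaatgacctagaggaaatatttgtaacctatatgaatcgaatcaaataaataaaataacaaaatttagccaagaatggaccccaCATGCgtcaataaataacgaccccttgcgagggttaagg
NAS3: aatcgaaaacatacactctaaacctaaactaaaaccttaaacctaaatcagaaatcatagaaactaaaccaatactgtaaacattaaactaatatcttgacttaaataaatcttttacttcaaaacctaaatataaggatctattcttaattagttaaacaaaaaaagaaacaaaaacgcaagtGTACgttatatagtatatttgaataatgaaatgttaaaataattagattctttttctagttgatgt
YSL1: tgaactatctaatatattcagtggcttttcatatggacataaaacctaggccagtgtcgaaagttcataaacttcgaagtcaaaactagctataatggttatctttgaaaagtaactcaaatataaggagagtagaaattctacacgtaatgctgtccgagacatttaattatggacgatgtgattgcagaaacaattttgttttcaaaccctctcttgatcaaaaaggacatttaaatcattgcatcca
YSL3: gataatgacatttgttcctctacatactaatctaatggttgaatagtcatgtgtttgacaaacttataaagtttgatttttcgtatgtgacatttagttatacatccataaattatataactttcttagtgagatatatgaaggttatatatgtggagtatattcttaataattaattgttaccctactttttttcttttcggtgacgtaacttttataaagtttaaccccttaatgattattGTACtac
OPT3: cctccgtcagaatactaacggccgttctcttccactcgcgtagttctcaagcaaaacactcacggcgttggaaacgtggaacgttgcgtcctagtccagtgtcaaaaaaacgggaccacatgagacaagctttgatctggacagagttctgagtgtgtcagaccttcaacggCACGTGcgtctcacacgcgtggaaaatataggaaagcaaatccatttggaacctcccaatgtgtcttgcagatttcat

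Levels of different genes were compared as TPM, which corrects for transcript length. In mock WT seedlings OPT3 (99.8 ± 12.4 TPM, SD, n = 3) and NAS1 (99.7 ± 26.9) stood highest. YSL3 (61.7 ± 12.2), NAS2 (39.2 ± 15.1), YSL2 (29.7 ± 0.568) and NAS4 (23.6 ± 9.91) followed, then YSL1 (8.9 ± 2.09) and NAS3 (2.26 ± 0.574). Each neighbour in that order overlapped the next in its library values, except NAS4 over YSL1 and YSL1 over NAS3. In mock WT buds, whose table was scaled separately, the transporters led: OPT3 (70.9 ± 1.65 TPM, n = 4), YSL1 (27.7 ± 2.61), YSL3 (15.7 ± 1.95) and YSL2 (4.41 ± 0.378), with no overlap between neighbours. The synthases were near the bottom of the table in buds, at 0.966 ± 0.291 TPM for NAS3, 0.106 ± 0.0711 for NAS4, and with NAS1 and NAS2 listed at 0 in 2 and 3 of the 4 libraries. The summed synthase level was 118 to 220 TPM in mock WT seedlings and 0.881 to 1.38 TPM in mock WT buds.

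A gene is called below when its Benjamini-Hochberg adjusted p, over all genes tested in a comparison, is under 0.05, with edgeR's quasi-likelihood test on seedling counts and limma on log2(TPM + 1) in buds. Fold changes are log2 values, and errors of fold changes are standard errors (SE). Comparisons that share a control group are not independent of each other. In whole seedlings and buds, fewer cells of a type and less RNA per cell cannot be told apart.

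**Figure D1:**
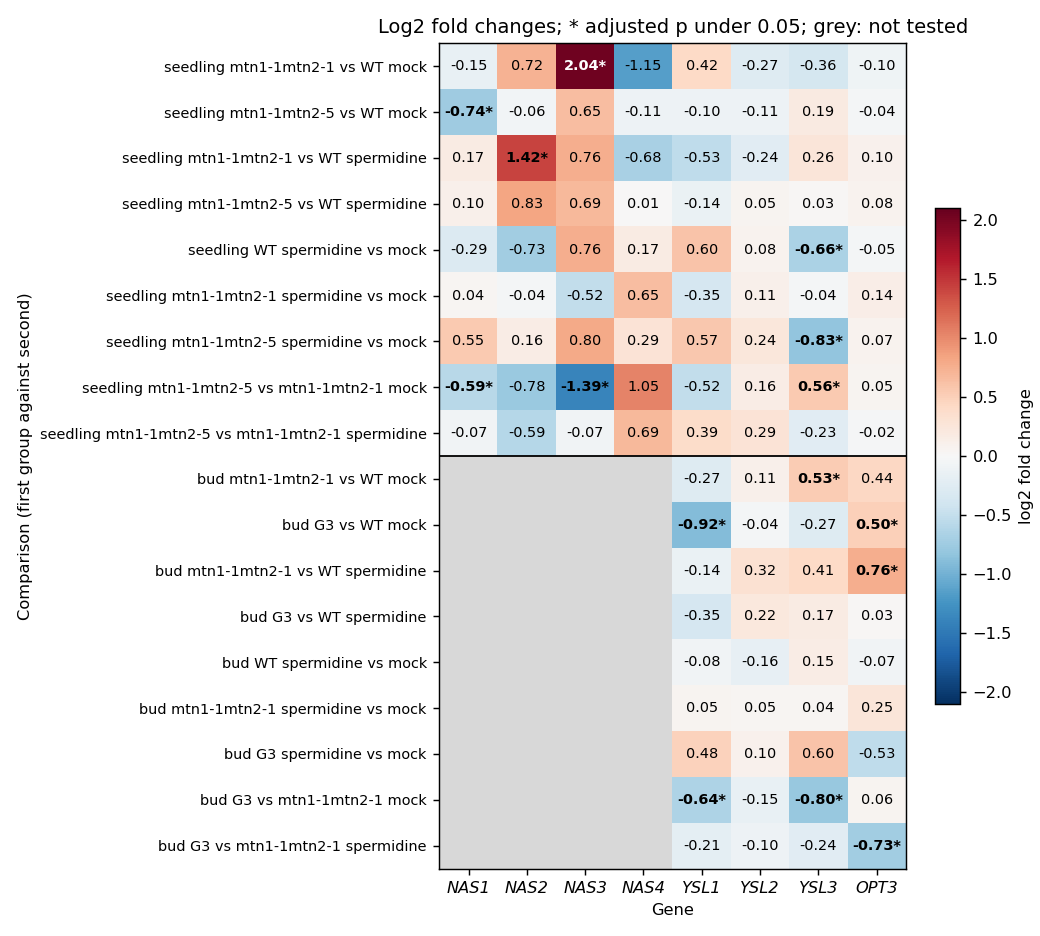
Log2 fold changes of the 8 genes (columns) in the 18 comparisons between 2 groups (rows). Red is higher and blue lower in the first group named, an asterisk marks an adjusted p under 0.05, and grey marks the synthases in buds, which were below the filter on low values. The strongest colour is NAS3 in mock mtn1-1mtn2-1 seedlings, at 2.04.

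NAS3, normally the least abundant synthase of the seedling, rose in mtn1-1mtn2-1 on mock medium. Its levels were 8.01, 8.14 and 10.1 CPM in the mutant against 1.74, 1.88 and 2.75 CPM in WT. The groups did not overlap. The mean was 4.12-fold higher (log2 2.04, SE 0.40, edgeR adjusted p 0.0043). It was the only 1 of the 8 genes called in that comparison, where 15.7% of all genes tested were called. The median over the 8 genes was -0.12, against 0.01 over all genes. With spermidine NAS3 was 6.04, 6.79 and 5.5 CPM in mtn1-1mtn2-1 and 3.62, 5.35 and 1.85 CPM in WT, again without overlap, but the difference of 0.76 (SE 0.39) was not called (edgeR adjusted p 0.20). The change of the genotype effect between media was -1.28 (SE 0.55, edgeR adjusted p 0.23), so a loss of the difference on spermidine was not shown. In mtn1-1mtn2-5 NAS3 spread from 1.61 to 5.71 CPM on mock medium and was not called against WT (0.65, SE 0.40, edgeR adjusted p 0.39).

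NAS2, a synthase known from roots, was higher in mtn1-1mtn2-1 on spermidine. Its level was 48.6, 38.0 and 82.9 CPM in the mutant and 15.0, 17.4 and 31.1 CPM in WT. All 3 mutant libraries lay above all 3 WT libraries, and the log2 difference was 1.42 (SE 0.32, edgeR adjusted p 0.0073). It was the only member called in a comparison with 18.2% of all genes called. Without mutant replicate 3, the highest library, the fold change was 1.02 (edgeR adjusted p 0.031), and a fit restricted to these 2 groups gave an adjusted p of 0.0531. On mock medium the mutant libraries held 56.2, 62.4 and 55.1 CPM and WT 49.7, 31.8 and 23.6 CPM, without overlap but not called (0.72, SE 0.32, edgeR adjusted p 0.14). The change of the genotype effect on NAS2 between media was not called by edgeR, beside 5.11% of all genes. A difference between media was therefore not shown. Summed over 5 root markers the libraries held 3100 to 3500 CPM in mtn1-1mtn2-1 and 3180 to 3430 CPM in WT on spermidine. Of those 5 markers 2 were called lower in the mutant and none higher, beside 7.32% of all genes called lower. Their median log2 difference was -0.415, against 0.009 over all genes, so the overlap of the sums does not show equal levels of each marker. The part of root tissue in the NAS2 result was not tested.

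NAS1, the most abundant synthase, fell in mtn1-1mtn2-5 on mock medium, from 121, 91.2 and 71.4 CPM in WT to 63.8, 48.9 and 57.2 CPM. The groups did not overlap, and the log2 difference was -0.74 (SE 0.21, edgeR adjusted p 0.038). It was the only member called there, beside 7.69% of all genes. The call is a weak one: it ended in 7 of 18 fits that left out 1 library, with a value of -0.522 and an adjusted p of 0.198 without WT mock replicate 1. The other libraries were WT mock replicate 2, mtn1-1mtn2-5 mock replicates 2 and 3, and 3 libraries of mtn1-1mtn2-1 that are not in the comparison. Without the mutant library that held more MTN1, replicate 2, the value was -0.645 (edgeR adjusted p 0.155). With spermidine NAS1 did not differ between mtn1-1mtn2-5 (102, 77.5 and 69.8 CPM) and WT (66.1, 74.6 and 91.9 CPM) beyond the spread of the libraries (0.10, SE 0.20, edgeR adjusted p 0.81). None of the 8 genes was called in that comparison, beside 13.0% of all genes. The change of the genotype effect on NAS1 between media was not called by edgeR, beside 1.22% of all genes. A loss of the NAS1 difference on spermidine was therefore not shown.

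NAS4 had lower values in mtn1-1mtn2-1 on mock medium and narrowly missed the threshold. Its levels were 14.0, 10.2 and 7.43 CPM in the mutant and 33.5, 23.1 and 13.6 CPM in WT, overlapping by 1 library (-1.15, SE 0.39, edgeR adjusted p 0.056). The DESeq2 test called it (adjusted p 0.042), as did edgeR without WT replicate 3 (-1.42, adjusted p 0.030). The summed synthase level, in TPM, did not separate these groups: it was 179 to 180 in mock mtn1-1mtn2-1 and 118 to 220 in mock WT, with a mean of 123 (109 to 132) in mock mtn1-1mtn2-5.

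**Figure D2:**
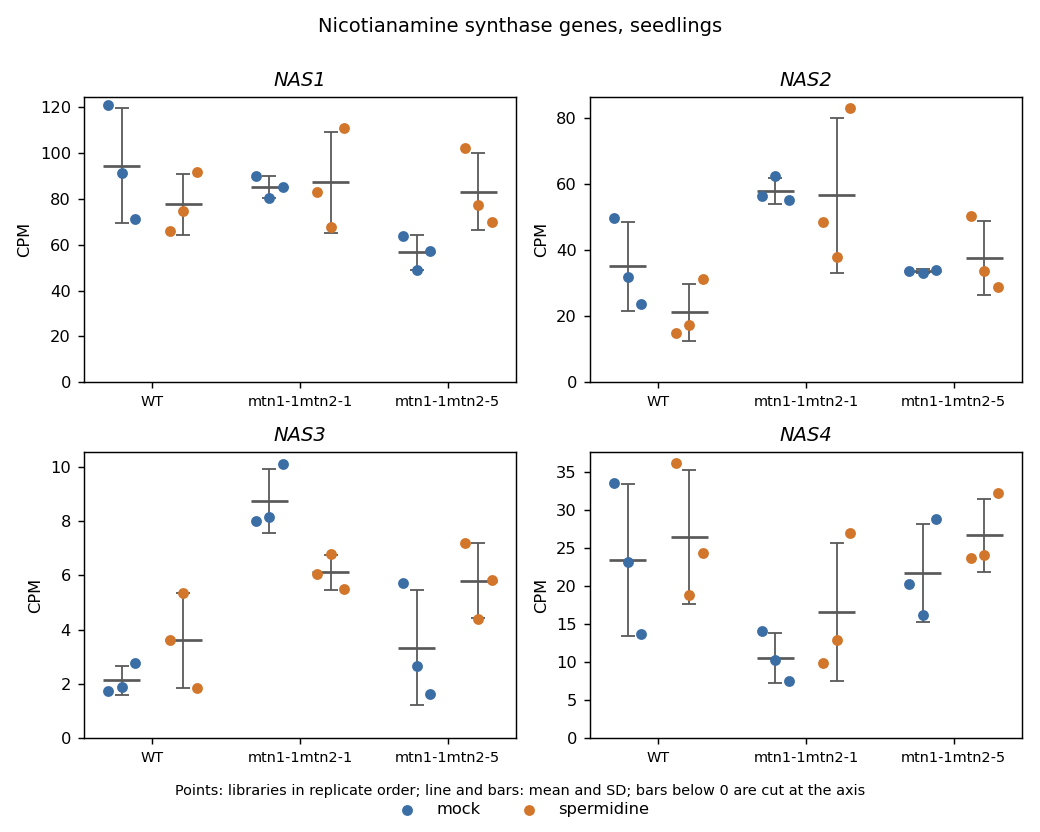
Levels of NAS1 to NAS4 in seedlings, in CPM after TMM scaling, by genotype and medium (blue mock, orange spermidine). Points are the 3 libraries of a group, lines and bars their mean and SD. The 3 mock mtn1-1mtn2-1 libraries of NAS3 sit between 8.01 and 10.1 CPM, above every WT library.

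Among the transporters, YSL3 was the gene that changed with spermidine. In WT it fell from 90.2, 97.4 and 131 CPM on mock medium to 65.9, 75.5 and 59.99 CPM with spermidine, a change of -0.66 on the log2 scale (SE 0.14, edgeR adjusted p 0.0061). A fall was also measured in mtn1-1mtn2-5, from 121, 122 and 120 CPM to 67.9, 61.9 and 75.4 CPM (-0.83, SE 0.14, edgeR adjusted p 0.0040). In both genotypes every spermidine library lay below every mock library. YSL3 was the only member called in either comparison, in which 9.26% and 4.95% of all genes were called. Both calls held in all 8 alternative fits and in each of 18 fits without 1 library, among them the fit without the mtn1-1mtn2-5 library with more MTN1 (-0.819, edgeR adjusted p 0.0179).

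In mtn1-1mtn2-1 the same comparison gave no such fall. YSL3 was 79.6, 89.8 and 78.0 CPM on mock medium and 88.4, 87.6 and 65.3 CPM with spermidine, overlapping (-0.04, SE 0.14, edgeR adjusted p 0.99). Its mock level was already below that of every mock WT library, with means of 82.5 and 106 CPM, but was not called. With spermidine the mutant and WT overlapped, with means of 80.5 and 67.1 CPM, also without a call. No gene at all was called for spermidine in this genotype (0 of 25201 by edgeR, with 1741 at an unadjusted p under 0.05, and up to 112 under the alternatives). The difference between its spermidine effect and that of WT was 0.62 for YSL3 (SE 0.20) and was not called by edgeR (adjusted p 0.083), beside 5.11% of all genes. It was called by DESeq2 (0.615, adjusted p 0.032) and by edgeR without mtn1-1mtn2-1 spermidine replicate 3 (0.734, adjusted p 0.025). In mtn1-1mtn2-5 the difference from WT was -0.17 (SE 0.20, edgeR adjusted p 0.87), where 1.22% of all genes were called and no member.

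The 2 mutants differed from each other on mock medium in 3 of the 8 genes, where 27.7% of all genes tested were called. YSL3 was higher in mtn1-1mtn2-5 than in mtn1-1mtn2-1 (0.56, SE 0.14, edgeR adjusted p 0.0078). NAS3 was lower in mtn1-1mtn2-5 (-1.39, SE 0.40, edgeR adjusted p 0.016), a call that ended without mtn1-1mtn2-5 mock replicate 2 (-1.26, adjusted p 0.063) or replicate 3 (-1.06, adjusted p 0.064) and moved to -2.03 without replicate 1. NAS1 was lower as well (-0.59, SE 0.21, edgeR adjusted p 0.044), but kept its call in only 9 of 18 fits without 1 library. It was lost without any mtn1-1mtn2-1 mock library or without mtn1-1mtn2-5 mock replicate 2 (-0.493, adjusted p 0.146) or 3, and without any of 4 libraries of other groups. NAS2 and NAS4 had groups without overlap and missed the threshold, at -0.78 (SE 0.32, edgeR adjusted p 0.081) and 1.05 (SE 0.39, edgeR adjusted p 0.057). With spermidine no member was called between the mutants, beside 26.0% of all genes. YSL2 came nearest, at 54.8, 47.8 and 54.4 CPM in mtn1-1mtn2-5 against 45.2, 37.5 and 45.6 CPM in mtn1-1mtn2-1 (0.29, SE 0.11, edgeR adjusted p 0.053), and passed the threshold in 5 of the 8 alternative fits.

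None of the other 3 transporters was called in any seedling comparison. OPT3 ranged from 146 to 231 CPM over all 18 libraries, and its group means spanned only 0.124 on the log2(TPM + 1) scale. YSL1 ran from 11.1 to 31.9 CPM, and its group means spanned 0.716, near the 0.819 of YSL3. Its spermidine effect was 0.60 (SE 0.24, edgeR adjusted p 0.15) in WT and -0.35 (SE 0.24, edgeR adjusted p 0.86) in mtn1-1mtn2-1. YSL2 was lower in mtn1-1mtn2-1 than in WT on both media without overlap, by 0.27 on mock medium, a value that was not called (-0.27, SE 0.11, edgeR adjusted p 0.089). Markers of phloem companion cells, where OPT3 is known to be active, summed to 320 to 347 CPM in mock mtn1-1mtn2-1 against 389 to 404 CPM in mock WT. Of these markers 2 of 4 were called lower, beside 8.12% of all genes called lower and 15.7% called in either direction. On spermidine they summed to 355 to 399 CPM in WT. In mtn1-1mtn2-5 they summed to 376 to 389 CPM on mock medium and 341 to 378 CPM on spermidine. In mtn1-1mtn2-1 they summed to 314 to 379 CPM on spermidine, overlapping its mock range. The median sums of mtn1-1mtn2-1 were 329 CPM on mock medium and 356 CPM on spermidine. None of the 4 was called for spermidine in any of the 3 genotypes. The part of phloem tissue in the YSL3 results was not tested.

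**Figure D3:**
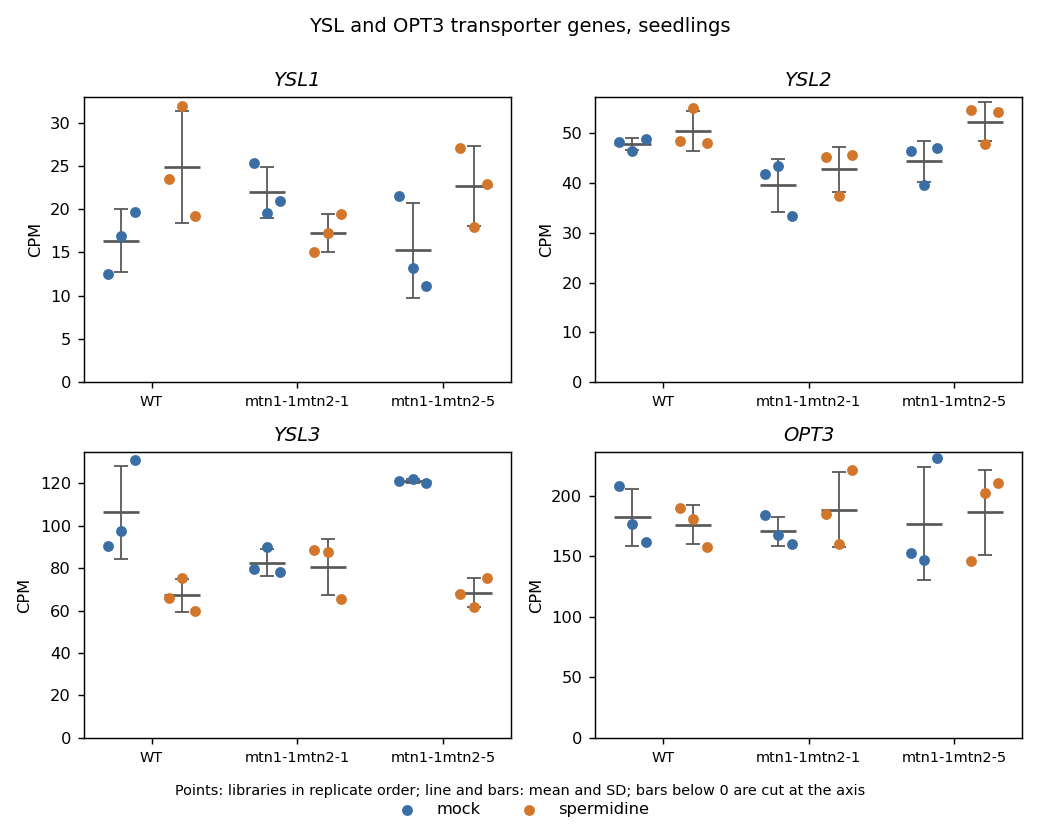
Levels of YSL1, YSL2, YSL3 and OPT3 in seedlings, in CPM after TMM scaling, by genotype and medium (blue mock, orange spermidine). Points are the 3 libraries of a group, lines and bars their mean and SD. YSL3 on spermidine lies at 59.99 to 75.5 CPM in WT and 61.9 to 75.4 CPM in mtn1-1mtn2-5, below their mock libraries.

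Genes that work beside nicotianamine were called at rates both above and below those of all genes. Of 8 further YSL and nicotianamine transport genes, 1 was called in mock mtn1-1mtn2-1 against WT, the locus AT3G01350 (-0.38, edgeR adjusted p 0.021), beside 15.7% of all genes. In mtn1-1mtn2-5 against WT, 1 of these 8 was called on mock medium, beside 7.69% of all genes, and 2 on spermidine, beside 13.0%. In mtn1-1mtn2-1 against WT on spermidine 1 was called, beside 18.2% of all genes. YSL7, a relative of these transporters, was higher in mtn1-1mtn2-5 than in WT on mock medium (1.28, edgeR adjusted p 0.0016) and on spermidine (1.08, edgeR adjusted p 0.0038). ZIF1, which moves nicotianamine into the vacuole, was higher than in WT on spermidine in mtn1-1mtn2-1 (0.93, edgeR adjusted p 0.0047) and mtn1-1mtn2-5 (0.75, edgeR adjusted p 0.020). Spermidine against mock called none of the 8 in any of the 3 genotypes. Of 20 genes of iron, zinc and copper transport and storage, 19 were tested, and 2 rose and 2 fell in mock mtn1-1mtn2-1, with a median of -0.08 against 0.01 over all genes, of which 15.7% were called. NRAMP3, a vacuolar iron exporter, rose by 0.74 (edgeR adjusted p 0.0017), and ZIP2, a zinc and manganese transporter, was at -0.73 (edgeR adjusted p 0.0058). With spermidine 2 of these 19 fell in WT and none rose, beside 9.26% of all genes called. HMA2, a zinc export pump, was 1 of them (-0.81, edgeR adjusted p 9.4e-04). Its spermidine effect in mtn1-1mtn2-1 differed from that in WT by 1.24 (edgeR adjusted p 0.0011). It was the only 1 of the 19 called for that interaction, beside 5.11% of all genes.

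Among 19 regulators of the iron deficiency response, none rose and 5 fell in mock mtn1-1mtn2-1 against WT, beside 15.7% of all genes. The median was 0.15, above 0 although every called gene fell. FIT, the basic helix-loop-helix factor that drives root iron uptake, stood at 7.49 to 7.7 CPM in the mutant and 12.2 to 25.3 CPM in WT (-1.30, edgeR adjusted p 0.011). Against WT on spermidine, 4 were called higher and 1 lower in mtn1-1mtn2-1, beside 18.2% of all genes. The largest differences were in bHLH101 (2.82, edgeR adjusted p 2.7e-04) and bHLH100 (2.47, edgeR adjusted p 0.048), which act with FIT. Spermidine against mock called none of the 19 in mtn1-1mtn2-1, as it called 0 of 25201 genes. In WT that comparison called 1 higher and 2 lower, beside 9.26% of all genes, and in mtn1-1mtn2-5 1 higher and 1 lower, beside 4.95%. Against WT, mtn1-1mtn2-5 had no regulator called on mock medium, where 7.69% of all genes were. On spermidine it had 1 called higher than in WT, bHLH101 (2.18, edgeR adjusted p 0.0014), beside 13.0% of all genes. The 4 SAM synthetase genes, whose product is the substrate of the synthases, were all called lower in mock mtn1-1mtn2-1 against WT. Their median was -0.34, beside 8.12% of all genes called lower. On spermidine 2 of the 4 were called lower in mtn1-1mtn2-1 against WT, beside 7.32% of all genes. None was called in mock mtn1-1mtn2-5.

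Of the 8 genes, NAS2, NAS3 and NAS4 had group means in seedlings that spanned at least 1 on the log2(TPM + 1) scale. The genes with the most similar pattern over the 18 libraries, by root mean square difference after centring, were EXPA8 for NAS2 (0.343), AT5G35480 for NAS3 (0.367) and UGT78D1 for NAS4 (0.299). These differences compare with SDs of 0.599, 0.67 and 0.607 of the 3 genes themselves. No other synthase or YSL gene was among the 3 nearest of any of them.

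In buds all 4 synthases fell below the filter of at least 1 TPM in at least 4 libraries, so only the 4 transporters were tested, among 22340 genes. The synthase values are therefore given with 2 alternative fits, limma without the filter over 27873 genes and edgeR on the counts under the names of the TPM table over 25730 genes. NAS4 was 1.65, 0.362, 0.83 and 0.356 TPM in mock mtn1-1mtn2-1 and 0.689, 0.392, 0.898 and 0.234 TPM in mock G3. In mock WT it was 0.209, 0.0831, 0.044 and 0.0893 TPM, below every mutant library. Without the filter limma gave 0.65 (SE 0.16, adjusted p 0.0030) for mtn1-1mtn2-1 and 0.47 (SE 0.16, adjusted p 0.028) for G3, and edgeR gave 2.71 (SE 0.72, adjusted p 0.0059) and 2.08 (SE 0.71, adjusted p 0.031). Adding 1 TPM before the logarithm understates the fold of genes this low. Under the names of the TPM table, NAS4 held 4 to 21 count units in mock WT and 23 to 60 in mock G3. In mock mtn1-1mtn2-1 it held 28 to 130, where 3 fragments equal 11.94 units. The WT values therefore rest on very few fragments, and edgeR took these units as counts. On spermidine NAS4 was 0.201 to 0.328 TPM in mtn1-1mtn2-1, 0 to 0.186 TPM in G3 and 0.0733 to 0.29 TPM in WT. It was below the mock libraries of the same genotype in both mutants, without a call (limma adjusted p 0.24 and 0.19).

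NAS3 was lower in G3 buds in both of these fits. It was 0.78, 0.317, 0.0756 and 0.151 TPM in mock G3 and 0.725, 1.14, 0.714 and 1.29 TPM in mock WT, overlapping by the first G3 library. Limma without the filter gave -0.58 (SE 0.14, adjusted p 0.0031) and edgeR -1.53 (SE 0.50, adjusted p 0.024). On spermidine G3 held 0.186 to 0.482 TPM and WT 0.522 to 0.91 TPM, without overlap (limma -0.45, SE 0.14, adjusted p 0.019). In mtn1-1mtn2-1 the value on mock medium was -0.27 (SE 0.14, limma adjusted p 0.14). NAS2 was 1.32, 0.0605, 0.353 and 0.0937 TPM in mock mtn1-1mtn2-1, and in mock WT it was 0.075 TPM in replicate 2 and listed at 0 in the other 3 libraries. The groups overlapped, and both fits called it higher in the mutant (limma 0.44, SE 0.15, adjusted p 0.026, and edgeR adjusted p 0.011). On spermidine it was 0.0648 to 0.186 TPM in mtn1-1mtn2-1 and listed at 0 in all 4 WT libraries, which edgeR called (adjusted p 0.026) and limma did not (0.17, SE 0.15, adjusted p 0.44). Because WT was at or near 0, no edgeR fold is given. The mutant libraries on spermidine held 4 to 12 count units of NAS2, where 3 fragments equal 11.94 units. This edgeR call therefore rests on very few fragments. For all bud synthases edgeR took count units as counts, which are more than the fragments behind them. NAS1 had its highest bud value, 0.34 TPM, in mock mtn1-1mtn2-1 replicate 1, as had NAS2.

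**Figure D4:**
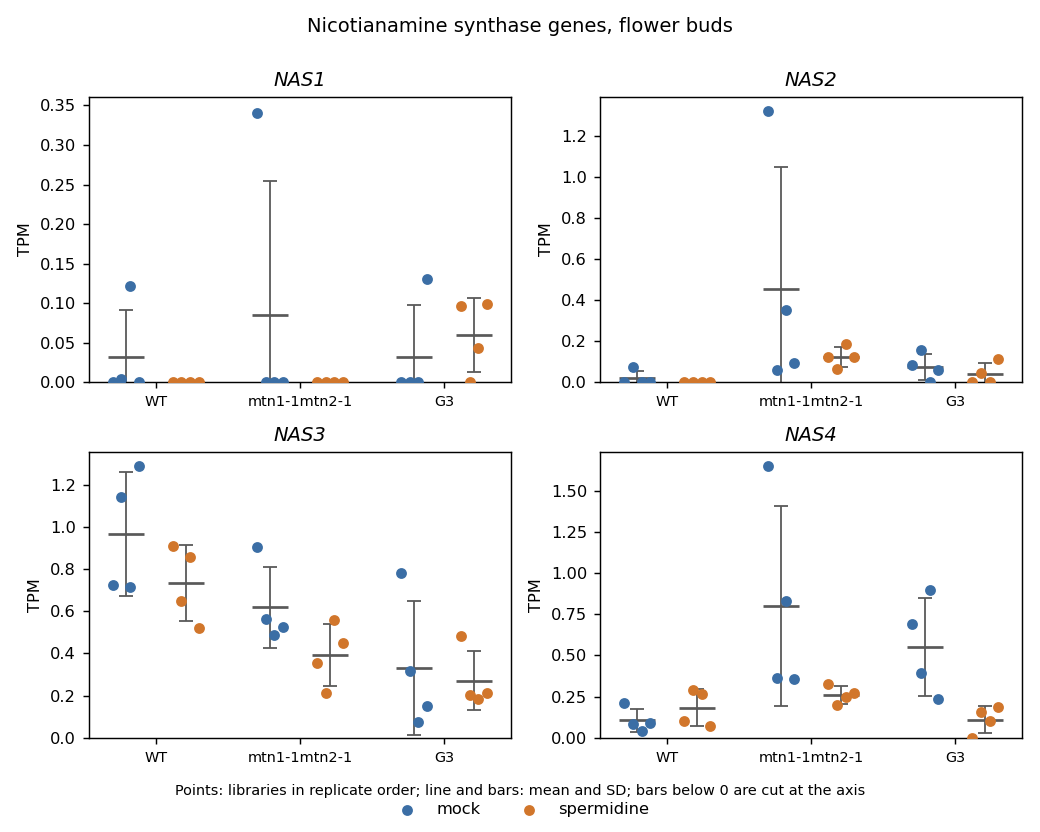
Levels of NAS1 to NAS4 in flower buds, in TPM under the names of the TPM table, by genotype and medium (blue mock, orange spermidine). Points are the 4 libraries of a group, lines and bars their mean and SD. Every mock mutant library of NAS4 lies above every mock WT library, and all values are below 1.7 TPM.

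YSL1 was lower in G3 buds on mock medium. It was 19.3, 11.4, 10.6 and 16.9 TPM in G3, 26.1, 26.3, 26.7 and 31.5 TPM in WT and 15.7, 24.4, 25.6 and 26.5 TPM in mtn1-1mtn2-1. All G3 libraries lay below all WT libraries, with a difference of -0.92 (SE 0.18, limma adjusted p 3.4e-04), a call kept in each of 24 fits without 1 library. Against mtn1-1mtn2-1 the value was -0.64 (SE 0.18, limma adjusted p 0.0096), with overlap through mtn1-1mtn2-1 replicate 1, and a fit restricted to these 2 groups gave an adjusted p of 0.0675. On spermidine G3 held 17.4 to 24.2 TPM and WT 23.1 to 28.7 TPM, which was not called (-0.35, SE 0.18, limma adjusted p 0.13), and the difference between the media was 0.56 (SE 0.25, limma adjusted p 0.80). In mock G3 against WT, 2 of the 4 tested transporters were called, beside 36.0% of all genes.

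OPT3 was higher in G3 buds on mock medium and in mtn1-1mtn2-1 buds on spermidine. In mock buds it was 73.4, 69.8, 70.4 and 70.1 TPM in WT, 96.2, 103, 125 and 82.6 TPM in G3 and 127, 117, 77.2 and 76.1 TPM in mtn1-1mtn2-1. Every mutant library lay above every WT library. The G3 difference was 0.50 (SE 0.19, limma adjusted p 0.047) and the mtn1-1mtn2-1 difference 0.44 (SE 0.19, limma adjusted p 0.073). The G3 call was kept in 8 of 24 fits without 1 library. It was lost without any WT mock library, without G3 mock replicate 1, 2 or 3 (0.392, adjusted p 0.144 without replicate 3), and without any of 9 libraries of other groups. The mtn1-1mtn2-1 value was called by edgeR on the counts (0.552, adjusted p 0.030). On spermidine mtn1-1mtn2-1 held 177, 121, 112 and 73.8 TPM and WT 69.9, 69.7, 64.4 and 66.2 TPM, a difference of 0.76 (SE 0.19, limma adjusted p 0.0038) that stayed called in all 24 such fits. It was the only member called there, beside 32.5% of all genes. G3 on spermidine held 64.5, 64.5, 64.5 and 84.9 TPM, near WT (0.03, SE 0.19, limma adjusted p 0.92), and no member was called in that comparison, beside 32.6% of all genes. OPT3 was therefore lower in G3 than in mtn1-1mtn2-1 on spermidine (-0.73, SE 0.19, limma adjusted p 0.0081), the 1 member called beside 22.8% of all genes. The libraries of the 2 groups overlapped, with 84.9 TPM in G3 replicate 4 above 73.8 TPM in mtn1-1mtn2-1 replicate 4. Restricting the fit to those 2 groups gave an adjusted p of 0.0575.

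YSL3 spread widely among mock mtn1-1mtn2-1 buds, at 12.6, 20.8, 30.6 and 34.4 TPM. WT held 12.8, 16.4, 17.0 and 16.7 TPM and G3 13.7, 10.6, 13.4 and 13.6 TPM. The difference of mtn1-1mtn2-1 from WT was 0.53 (SE 0.20, limma adjusted p 0.045), the only member called beside 39.1% of all genes, and the groups overlapped. The median over the 4 transporters was 0.27, against -0.06 over all genes. Its call ended in 15 of 24 fits without 1 library, among them those without any WT mock library, without mtn1-1mtn2-1 mock replicate 3 (0.395, adjusted p 0.157) or replicate 4 (0.34, adjusted p 0.191), and without any of 9 libraries of other groups. Replicate 1, the lowest of its group, also held the lowest YSL1 and the highest NAS1, NAS2 and NAS4 of the 4 libraries, and without it the value was 0.80 (limma adjusted p 5.0e-04). Between the mutants YSL3 was lower in G3 (-0.80, SE 0.20, limma adjusted p 0.0060), with an adjusted p of 0.0635 in a fit restricted to these 2 groups. Their libraries overlapped through mtn1-1mtn2-1 replicate 1. In that comparison 2 of 4 transporters were called, beside 26.4% of all genes. With spermidine it was 21.0, 16.8, 20.4 and 21.6 TPM in G3, above all mock G3 libraries but not called (0.60, SE 0.20, limma adjusted p 0.16).

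Spermidine called none of the 4 transporters in buds of any genotype, beside 0.0806% of all genes in WT, 0.0985% in mtn1-1mtn2-1 and 1.39% in G3. The fall of YSL3 with spermidine seen in WT seedlings had a bud value of 0.15 (SE 0.20, limma adjusted p 0.87). Interactions of genotype with spermidine called no member, beside 0.0671% of all genes for mtn1-1mtn2-1 and 0 of 22340 for G3, which had 1317 at an unadjusted p under 0.05 in limma and up to 38 called under the alternatives. YSL2 stayed at 3.4 to 7.13 TPM over all 24 libraries and was called in no bud comparison. Its nearest approach was 0.32 (SE 0.12, limma adjusted p 0.053) in mtn1-1mtn2-1 against WT on spermidine.

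**Figure D5:**
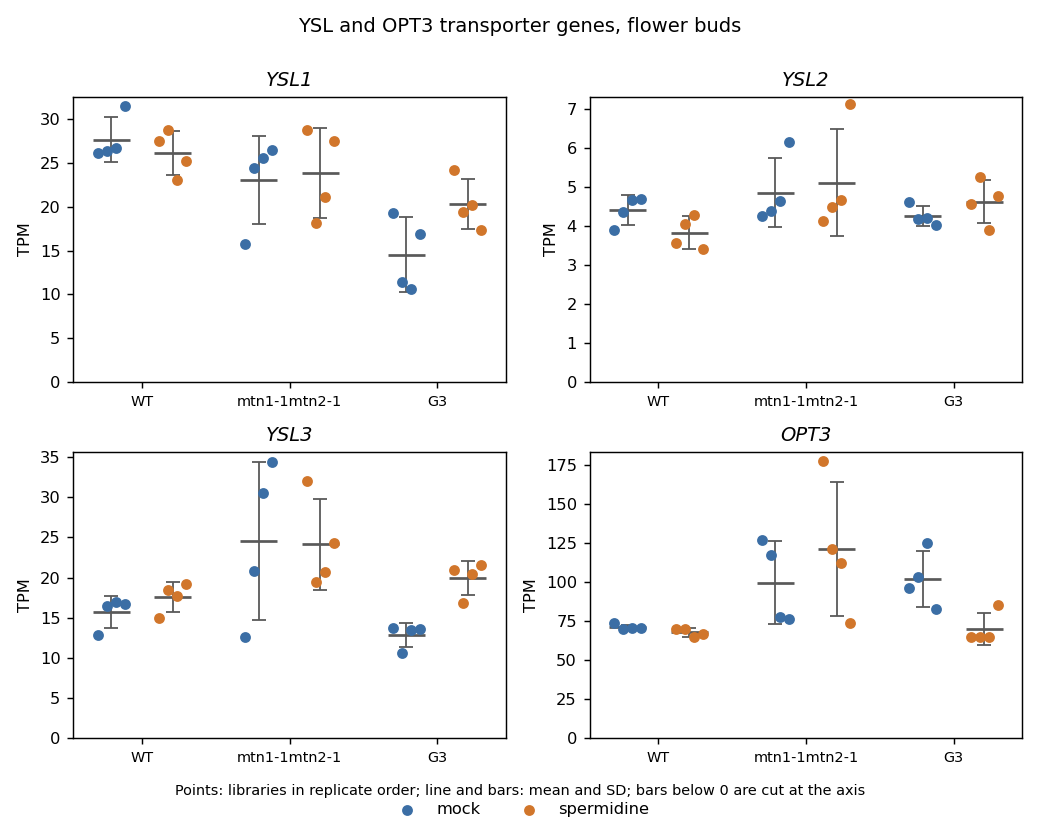
Levels of YSL1, YSL2, YSL3 and OPT3 in flower buds, in TPM under the names of the TPM table, by genotype and medium (blue mock, orange spermidine). Points are the 4 libraries of a group, lines and bars their mean and SD. Mock mutant libraries of OPT3 lie at 76.1 to 127 TPM, above the WT libraries at 69.8 to 73.4 TPM.

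Of 18 iron deficiency regulators tested in mock buds, 10 rose and 2 fell in G3 against WT, with a median of 0.54, beside 36.0% of all genes called and a median of -0.02. In mtn1-1mtn2-1 7 rose and 2 fell, with a median of 0.23, beside 39.1% of all genes called and a median of -0.06. The locus AT2G30766 stood at 11.6 to 33.6 TPM in G3, 4.51 to 48.8 TPM in mtn1-1mtn2-1 and 0.248 to 1.45 TPM in WT (3.61 and 2.85, limma adjusted p 3.3e-05 and 3.5e-04). bHLH38, an iron deficiency factor that pairs with FIT, rose by 2.49 in G3 and 1.77 in mtn1-1mtn2-1 (limma adjusted p 0.0030 and 0.025). Of 17 metal transport and storage genes tested, 5 rose and 6 fell in mock G3, beside 36.0% of all genes, and FER1, an iron storage ferritin, fell by 1.37 (limma adjusted p 3.4e-10) and FRO2, the ferric reductase of iron uptake, by 1.22 (limma adjusted p 2.6e-06). In mock mtn1-1mtn2-1 3 rose and 7 fell, beside 39.1% of all genes, led by FRD3, a citrate exporter (-1.93, limma adjusted p 5.5e-05), and IRT1, the main iron importer of roots (-1.53, limma adjusted p 1.5e-07). Among the 8 further YSL and nicotianamine transport genes, 2 rose and 4 fell in mock G3, with a median of -0.30, and 1 rose and 4 fell in mock mtn1-1mtn2-1, with a median of -0.20, beside the same shares of all genes. YSL8 was higher in G3 (0.83, limma adjusted p 1.6e-06) and AT3G01350 lower in mtn1-1mtn2-1 (-1.14, limma adjusted p 2.5e-05).

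Tissue markers of the buds differed in the same comparisons. Over all genes 25.7% were called lower and 13.4% higher in mock mtn1-1mtn2-1 against WT. In mock G3 against WT these shares were 19.9% and 16.1%, and in mock G3 against mtn1-1mtn2-1 8.77% and 17.7%. Pollen markers summed to 583 to 845 TPM in mock mtn1-1mtn2-1, 1160 to 1450 TPM in mock G3 and 1500 to 1860 TPM in mock WT, with 4 of 4 and 2 of 4 called lower. Photosynthetic markers summed to 19300 to 21500 TPM in mock mtn1-1mtn2-1, against 13800 to 16100 TPM in WT and 14000 to 16000 TPM in G3. Of these 4 markers 2 were called higher in mtn1-1mtn2-1 against WT, 2 lower in G3 against WT (median -0.35), and 4 lower in G3 against mtn1-1mtn2-1. Floral organ markers summed to 837 to 948 TPM in mtn1-1mtn2-1, 732 to 814 TPM in G3 and 958 to 1080 TPM in WT, with 3 of 4 and 4 of 4 called lower than in WT and no overlap of either with WT. Tapetum markers summed to 772 to 1090, 820 to 1060 and 623 to 857 TPM in mtn1-1mtn2-1, G3 and WT. Of these 7 markers 2 were called higher in mtn1-1mtn2-1 and 4 in G3 against WT, with none lower. Phloem companion cell markers summed to 228 to 283, 241 to 272 and 227 to 248 TPM in the same order. Of these 4 markers none was called in mtn1-1mtn2-1 and 2 were called higher in G3 against WT. The part of these tissues in the results for YSL1, YSL3, OPT3 and NAS4 was not tested.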

How the data were processed

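Polyadenylated RNA from pooled tissue was sequenced, and the submitters' processing notes name Trim Galore, STAR, StringTie and the TAIR10 genome. The authors deposited estimated counts per gene, whole-number units spaced at about 3.33 units per fragment in seedlings and 3.98 in buds, and TPM values per gene. How StringTie coverage became counts, and whether strand was used, is not given in the sources used here, so antisense or overlapping genes and the close NAS copies may share reads. Every deposited column matched 1 sample by name (0 did not).

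The members and gene lists were chosen with earlier results of these data known. Seedling counts were tested with edgeR 4.0.16 (filterByExpr, TMM, quasi-likelihood, 6 groups in 1 model) and bud TPM with limma 3.58.1 (log2(TPM + 1), at least 1 TPM in at least 4 libraries, 6 groups in 1 model), in R 4.3.3. TPM was the unit in buds because the names of the count and TPM tables disagree there. An adjusted p under 0.05 was the threshold. Tests were checked on simulated data. DESeq2 1.42.0, other scalings, filters and pseudocounts, a replicate block and leaving out each library were the alternatives. Sequences were read with pyfaidx 0.9.0.4 and aligned with Biopython 1.88, and figures drawn with matplotlib 3.10.9 in Python 3.11.15. Genes named are the 8 members, MTN1, MTN2 and, per other list and comparison described, up to 3 called genes with the largest change. A regulator near the detection limit, MYB72, is left out of the called genes named, but it is among the 19 regulators counted in seedlings. Same-numbered replicates did not deviate together (correlations of -0.308 to 0.174 in seedlings and -0.237 to 0.344 in buds).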

Additional observations from a re-analysis of the deposited data

Results flagged for a closer look

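In groups of 4 bud libraries a sample was picked out when its gap to the nearest other library was a larger part of the range of the group than Dixon's critical value for that size. Of 48 groups of member TPM values, 3 were all 0 and could not be tested, and 9 of the other 45 met this. Chance gives about 1 in 20 for ordinary values, but not for 3 of the 9, in which 3 libraries were listed at 0 and any positive value in the remaining library meets the condition. Most picked-out values of the synthases were single libraries above others at or near 0. NAS1 was 0.34 TPM in mock mtn1-1mtn2-1 replicate 1, 0.13 TPM in mock G3 replicate 4 and 0.122 TPM in mock WT replicate 3. NAS2 was 0.075 TPM in mock WT replicate 2, the other 3 being 0. NAS3 was 0.482 TPM in spermidine G3 replicate 1, above 0.186 to 0.215 TPM in the others.

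Among the transporters, OPT3 was 84.9 TPM in spermidine G3 replicate 4 against 64.5 TPM in each of the others. YSL1 was 31.5 TPM in mock WT replicate 4, above 26.1 to 26.7 TPM. YSL3 was low in mock G3 replicate 2 (10.6 TPM, the others 13.4 to 13.7 TPM) and in mock WT replicate 1 (12.8 TPM, the others 16.4 to 17.0 TPM).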

How the results depend on the processing

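Counts of member calls, over a family of comparisons, depended on the fit. For seedling mutants against WT there were 3 calls, 1 in fits restricted to the groups compared, and 2 to 5 when 1 library was left out. Between seedling mutants there were 3, with 5 in restricted fits and 1 to 7 without 1 library. Seedling spermidine gave 2 calls (2 to 4 without 1 library), and the seedling interactions 0 (1 with DESeq2, 0 to 1 without 1 library). For bud mutants against WT there were 4, with 7 without the filter, 12 by edgeR on counts under the TPM names, 8 under the count-table names and 2 to 6 without 1 library. In each bud family the main count covers only transporters. The fit without the filter and the edgeR fits also tested synthases, so those counts are not of the same genes. Without the filter the calls of YSL3 in mock mtn1-1mtn2-1 and of OPT3 in mock G3 were lost. Over all genes the calls against WT ran from 5315 to 9077 in mock mtn1-1mtn2-1 and from 6789 to 9128 in mock G3. Bud spermidine gave 0, with 1 in restricted fits and 0 to 1 without 1 library. Between bud mutants there were 3, with 0 in restricted fits, 7 under the count-table names and 3 without 1 library. With a replicate block the counts were 3, 2, 3 and 0 in seedlings (against WT, spermidine, between mutants, interactions) and 4, 0, 3 and 0 in buds, so the block changed none of them. Every reversed direction came from edgeR on counts under the count-table names. In mock mtn1-1mtn2-1 against WT YSL1 became 0.689, bHLH38 -0.433 and AT2G30766 -0.246. In mock G3 against WT OPT3 became -0.543, YSL1 0.888, YSL8 -0.86, bHLH38 -7.31, FRO2 1.42, FER1 1.35, AT2G30766 -4.68, MTN1 4.08 and MTN2 6.21. In mock G3 against mtn1-1mtn2-1 OPT3 became -0.552 and YSL1 0.199. Exchanged names are built into that alternative; other causes were not tested. Over all genes, spermidine calls in buds ran from 4 to 690 in G3, 2 to 830 in WT and 0 to 230 in mtn1-1mtn2-1, those between mock bud mutants from 3699 to 8470, and those of seedling mtn1-1mtn2-1 against WT on spermidine from 1842 to 5605. Depth limits the bud synthases, where 3 fragments equal 11.94 count units.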
